A study of Arabidopsis thaliana with 6 samples.

Results

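Small heat shock proteins (small HSPs) and the heat shock transcription factor HSFA9 were followed through the re-establishment of desiccation tolerance (DT) by osmotic stress. The set holds 10 genes chosen by locus, of 27981 loci on the arrays: 9 small HSP genes (HSP17.4, HSP17.6II, HSP17.6A, HSP17.8, HSP17.6C, HSP21, HSP22, HSP18.2 and HSP23.6) and HSFA9. Each gene had 1 feature among the 35986 of the deposited table, and none of these features carried the same values as another one. Transcript levels came from 6 Affymetrix arrays of germinated Arabidopsis seeds, accession Col-0, taken at radicle protrusion. All seeds were first cold stratified in water for 72 h at 4 °C. The 3 untreated arrays came from seeds frozen at once after germination in continuous white light at 22 °C. The 3 PEG arrays were made from seeds kept afterwards for 72 h in polyethylene glycol at -2.5 MPa, in the dark at 20 °C. Osmotic stress, darkness, time and temperature therefore changed together and cannot be told apart. The sample titles number the arrays of each group as biological replicates. The paper describes bulk seed harvests in 3 replicates, each from at least a pair of plants. The titles do not state whether an untreated and a PEG array share a harvest. The values average whole germinated seeds, and fewer cells of a type cannot be told apart from less RNA per cell.

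Small HSPs are chaperones with an alpha-crystallin domain that assemble into oligomers and hold unfolding proteins in a state from which other chaperones can refold them. Most plant small HSP genes are nearly silent in unstressed vegetative tissue and are switched on by heat through heat shock transcription factors (HSFs). Part of the family is also made without heat during late seed maturation, when DT is acquired. HSFA9 is a seed-specific HSF that acts downstream of the maturation regulator ABI3, and it can activate small HSP promoters.

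Most values of the set lay under 4 on the log2 scale in both groups. This is the floor to which the study's array methods, written for its abscisic acid (ABA) arrays, set lower values. Of the 60 values (10 genes on 6 arrays), 16 exceeded 4. They were split almost evenly, with 9 of 30 values in untreated seeds and 7 of 30 after PEG. HSP17.4 alone exceeded 4 on all 6 arrays. HSFA9, HSP17.6II, HSP17.6C, HSP21 and HSP22 were under 4 on every array, which makes 5 of 10 genes (50.0%). At or under 4 throughout were 33.6% of all features, and 38.5% of all genes with 1 feature each.

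None of the 10 genes was called higher and none lower after PEG by limma. A call required both a change of at least 2 on the log2 scale and a p, adjusted by Benjamini-Hochberg over the 35986 features, no greater than 0.01. Over all features 1.15% were called higher and 1.6% lower, so a set of this size would hold few calls in any case. At an unadjusted p under 0.05, 1 member passed (HSP18.2, lower), where 38.2% of all features did. The median log2 fold change of the set was 0.00, the same as over all features. With 5 genes at the floor on all arrays, 3 higher and 2 lower, this median could only be 0. Without the floor it was 0.05, where that over all features was 0.01. With values under 4 set to 4, differences could be measured in 5 members and ranged from -0.38 to 0.51. In the 5 members under 4 throughout, the floor leaves no difference to measure, so each is described below by its deposited values as well.

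Without the floor, no member was called either (1.48% of all features were called higher and 3.2% lower), while 3 had an unadjusted p under 0.05 (HSP17.6A, HSP17.8 and HSP18.2), where 45.9% of all features did. The limma difference without the floor had a 95% interval within ±2 for all 10 genes, as for 91.2% of all features. The outermost bounds were -1.37 for HSP17.8 and 1.66 for HSP23.6. Values under 4 lie in the range that the study's methods treat as background noise on its ABA arrays. These intervals therefore bound the measured signal and not the transcript level there. The number of arrays is a limit as well. An exact permutation test of 3 against 3 arrays, which was not run, could not give a two-sided p under 0.1 for a single gene.

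**Figure D1:**
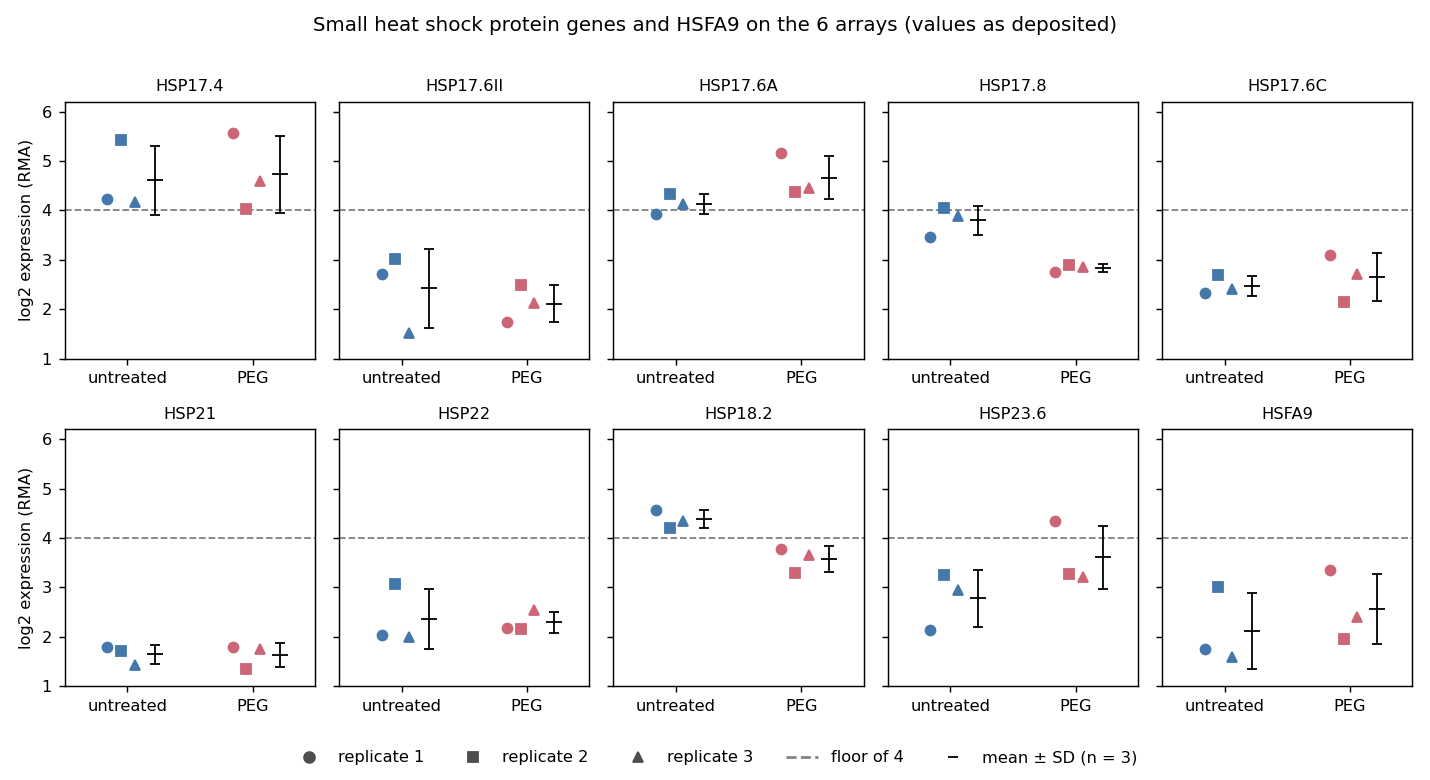
Log2 expression as deposited (y axis) of each of the 10 genes in 3 untreated and 3 PEG arrays (x axis), with symbols for replicate numbers, mean ± SD beside them and a dashed line at the floor of 4. Only HSP17.4 stays above 4 on all 6 arrays, whereas HSFA9, HSP17.6II, HSP17.6C, HSP21 and HSP22 stay under it.

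HSP17.4 (AT3G46230) encodes a cytosolic class I small HSP that is known to be made during seed maturation in Arabidopsis. In untreated seeds its log2 values were 4.24, 5.42 and 4.18 in replicates 1, 2 and 3, and after PEG they were 5.56, 4.03 and 4.60. One array of each group was high, and the groups overlapped over nearly their whole range. The means of 4.61 ± 0.70 and 4.73 ± 0.77 (SD, n = 3 each) differed by 0.12 (SE 0.58, limma adjusted p = 1.0). Without the floor the 95% interval of this difference was -0.86 to 1.10, and its sign depended on the arrays included: it was -0.30 without PEG replicate 1 and 0.52 without untreated replicate 2. In the gene table HSP17.4 overlaps the coding gene AT3G46220 and the long non-coding RNA gene AT3G07365, and it is not stated whether its probes avoid them.

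HSP18.2 (AT5G59720), another class I gene and a classical heat-induced one, had the smallest p among the members with the floor. Its values were 4.57, 4.21 and 4.35 in untreated seeds and 3.78, 3.29 and 3.66 after PEG. All untreated arrays lay above 4 and all PEG arrays under it, without overlap. With the floor, to which all PEG arrays were set, the log2 fold change was -0.38 (SE 0.10, limma adjusted p = 0.058). Without the floor it was -0.80 (95% interval -1.21 to -0.38, adjusted p = 0.0080), past the limit on p but not the fold limit. Other scalings without the floor took it over the p limit, with -0.57 after quantile normalization (adjusted p = 0.040) and -0.72 after centring on array medians (adjusted p = 0.014). On the deposited scale the p limit was kept only without untreated replicate 2 (0.0065) when single arrays were left out, and the adjusted p was 0.0332 without untreated replicate 1, 0.0249 without untreated replicate 3, 0.0118 without PEG replicate 1, 0.0341 without PEG replicate 2 and 0.0237 without PEG replicate 3 (limma, Benjamini-Hochberg).

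HSP17.8 (AT1G07400), also of class I, had values of 3.47, 4.04 and 3.89 in untreated seeds. After PEG the values were 2.75, 2.90 and 2.86. The groups did not overlap, but only untreated replicate 2 exceeded 4, so that the log2 fold change with the floor was -0.01 (SE 0.01, limma adjusted p = 0.63). Without the floor it was -0.96 (95% interval -1.37 to -0.55, adjusted p = 0.0028). This value was -0.67 after quantile normalization (adjusted p = 0.0077) and -0.89 after centring (adjusted p = 0.0026). The adjusted p stayed within the limit without untreated replicate 1 (0.00195) or untreated replicate 2 (0.00536) but was 0.0133 without untreated replicate 3. Leaving out a PEG array gave 0.0133 (replicate 1), 0.0108 (replicate 2) and 0.0125 (replicate 3).

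HSP17.6C (AT1G53540), the remaining class I member, lay under 4 throughout. Its untreated values were 2.32, 2.69 and 2.40, and its PEG values 3.10, 2.14 and 2.71. The PEG arrays spanned the untreated ones, and the difference without the floor was 0.18 (95% interval -0.37 to 0.74, limma adjusted p = 0.63).

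The class II pair HSP17.6II (AT5G12020) and HSP17.6A (AT5G12030) encode cytosolic small HSPs and are adjacent genes. HSP17.6A, which is known to respond to osmotic stress as well as to heat in Arabidopsis, had values of 3.92, 4.33 and 4.13 in untreated seeds and of 5.17, 4.38 and 4.45 after PEG. The groups did not overlap, but they were parted by only 0.05 between untreated replicate 2 and PEG replicate 2. With the floor the log2 fold change was 0.51 (SE 0.26, limma adjusted p = 0.25), and without it 0.54 (95% interval 0.01 to 1.07, adjusted p = 0.10). It was 0.29 without PEG replicate 1 and no floor, the array that lay highest. HSP17.6II gave 2.72, 3.02 and 1.52 in untreated seeds and 1.74, 2.48 and 2.12 after PEG. These values overlapped, all were under 4, and the difference without the floor was -0.30 (95% interval -1.14 to 0.53, limma adjusted p = 0.58).

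The organelle members were low in both groups. HSP21 (AT4G27670) encodes the small HSP of plastids, where it protects photosystem II under heat. Its values were 1.79, 1.71 and 1.43 in untreated seeds and 1.79, 1.35 and 1.76 after PEG. The groups overlapped, with a difference of -0.01 without the floor (95% interval -0.43 to 0.41, limma adjusted p = 0.97). HSP22 (AT4G10250), a small HSP of the endoplasmic reticulum, had 2.03, 3.07 and 1.99 in untreated seeds and 2.17, 2.16 and 2.54 after PEG. Only untreated replicate 2 stood apart, and the difference was -0.08 without the floor (95% interval -0.73 to 0.58, adjusted p = 0.88).

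HSP23.6 (AT4G25200), the mitochondrial member, had values of 2.13, 3.26 and 2.94 in untreated seeds and 4.35, 3.27 and 3.21 after PEG. PEG replicate 1 was the only array above 4, and the groups overlapped. The log2 fold change was 0.12 with the floor (SE 0.11, limma adjusted p = 0.63) and 0.83 without it (95% interval -0.00 to 1.66, adjusted p = 0.11), the largest positive difference among the members on the latter scale. It was 0.46 without PEG replicate 1 and 1.05 after quantile normalization (adjusted p = 0.022), both without the floor.

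HSFA9 (AT5G54070) gave 1.76, 3.01 and 1.59 in untreated seeds and 3.35, 1.96 and 2.40 after PEG. None of these values reached 4, and untreated replicate 2 exceeded PEG replicates 2 and 3. Means were 2.12 ± 0.78 and 2.57 ± 0.71 (SD, n = 3 each), a difference of 0.45 without the floor (95% interval -0.53 to 1.43, limma adjusted p = 0.48). The value was 0.06 without PEG replicate 1 and 0.89 without untreated replicate 2. At this signal a transcript of HSFA9 was not detectable above the floor in either group. In the gene table HSFA9 overlaps the small nucleolar RNA gene U3D, and the probe positions are not stated in the sources used here.

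The order of the groups was thus not shared within the set: without the floor, 5 members were higher and 5 lower after PEG. Groups did not overlap in 3 members, where this held for 49.6% of all features and for 57.9% of the 7274 features with a mean of 3 to 5. In HSP17.6A all PEG arrays were higher, as in 23.6% of all features, and in HSP17.8 and HSP18.2 all were lower, as in 25.9%. An adjusted p of 0.01 or less without the floor was reached by 2 members, both lower and both of class I, where 15.2% of all features passed in that direction and 11.6% in the other. HSP18.2 did not pass after quantile normalization or centring. The probes' positions are not stated in the sources used here, so signal shared between similar class I genes cannot be told apart from separate changes of each. Over all features the median difference without the floor was 0.01, and it was 0.08 after centring and 0.05 after quantile normalization.

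Replicate arrays differed in the members' values in both groups. Untreated replicate 2 was the highest untreated array for 8 of the 10 genes, HSP21 and HSP18.2 being the exceptions. This array was also the highest of its group for 78.6% of the 12085 features at or under 4 on all arrays, and its first quartile was 2.83, compared with 2.30 for untreated replicates 1 and 3. Among the PEG arrays, replicate 1 was the highest for 7 members, namely HSP17.4, HSP17.6A, HSP17.6C, HSP21, HSP18.2, HSP23.6 and HSFA9. It was the highest PEG array for 29.5% of the features at or under 4 throughout and for 32.8% of all features, and its first quartile of 2.33 lay between 2.32 and 2.45 of the other PEG arrays. The median deviation of the members from their PEG mean was 0.33 on this array, where that of the low features was -0.03. With both untreated replicate 2 and PEG replicate 1 left out, the difference without the floor was 0.11 for HSP17.4, 0.51 for HSFA9, 0.39 for HSP17.6A and 0.70 for HSP23.6. In this setting it was also positive for HSP22 (0.34), HSP17.6II (0.18) and HSP17.6C (0.07). For HSP18.2 (-0.98), HSP17.8 (-0.80) and HSP21 (-0.06) it was negative.

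**Figure D2:**
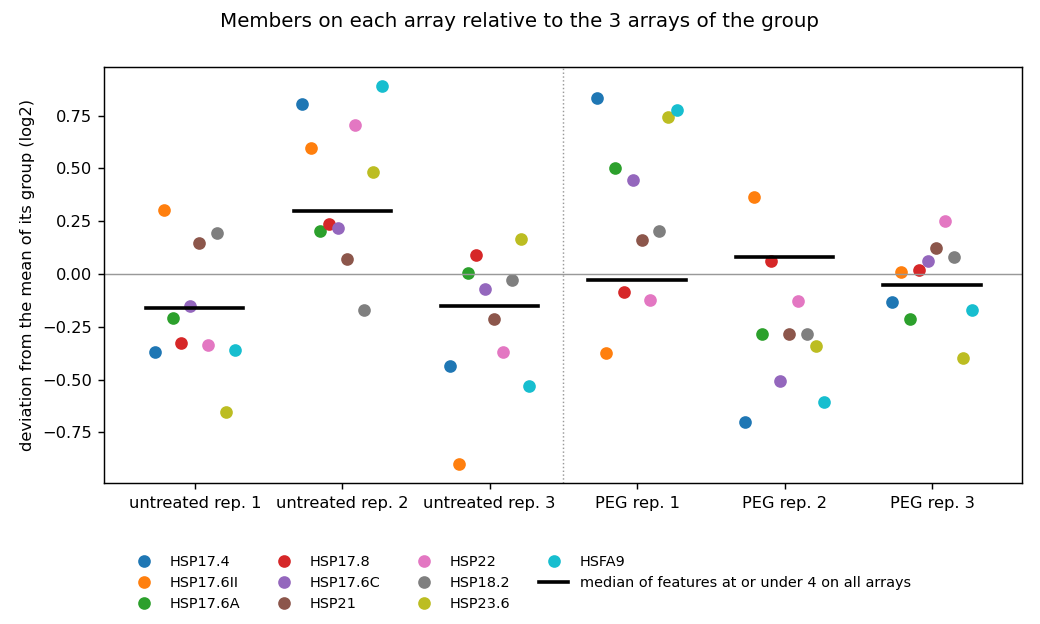
Deviation of each member from the mean of its 3 arrays (y axis, log2, values as deposited) on each array (x axis), with a black bar for the median deviation of the 12085 features at or under 4 on all arrays. Members and bar are both raised on untreated replicate 2, whereas on PEG replicate 1 most members are raised and the bar is at -0.03.

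Profiles over the 6 arrays were compared between HSFA9 or HSP17.4 and the other genes by Pearson correlation. For HSFA9 the highest values, among 16055 other genes above 4 on at least 3 arrays, were those of AT1G55090 (r = 0.996), RAP74 (0.993), PIP5K9 (0.991), CAND1 (0.990) and AT4G24200 (0.989). For HSP17.4 they were those of AT1G13810 (0.991), AT3G53940 (0.985), AT4G00755 (0.985), SESA3 (0.984) and CAND1 (0.983). SESA3 encodes a seed storage albumin and CAND1 a regulator of cullin ubiquitin ligases. The log2 fold changes of these genes after PEG lay between -0.04 and 0.16, and none was called. They were chosen for likeness to profiles that varied more within the groups than between them, so small changes follow in part from that choice. The correlations rest on 6 arrays in 2 groups, HSFA9 was under the floor on all of them, and they are given as a description.

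ABI3, upstream of HSFA9 in maturing seeds, was above 4 on all arrays. Its values were 6.43, 7.57 and 7.39 in untreated seeds and 8.90, 8.80 and 8.75 after PEG. All PEG arrays lay above the untreated ones, by 1.69 in the mean (SE 0.34, adjusted p from limma 0.027), which missed both limits. The floor left these values unchanged, but without it the SE from limma was 0.28, the adjusted p 0.0014 and the 95% interval 1.05 to 2.32. Whether ABI3 and HSFA9 differ in their change was not tested. FUS3, LEC1 and LEC2, the other regulators of seed maturation examined, were under 4 on all arrays.

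Calls were made among the remaining small HSP and alpha-crystallin genes. Of 14 such genes, 1 was called higher and 2 lower (1.15% and 1.6% of all features), and their median log2 fold change was -0.22. At any fold, a limma adjusted p of 0.01 or less was reached by 1 higher and 5 lower (7.46% and 8.24% of all features). All PEG arrays were higher in 2 of these genes and lower in 8 (23.6% and 25.9% of all features). ACD32.1 (AT1G06460), an alpha-crystallin domain protein, rose by 2.95 on the log2 scale (SE 0.15, limma adjusted p = 8.3e-04), with means of 4.87 ± 0.23 in untreated seeds and 7.82 ± 0.14 after PEG (SD, n = 3 each). AT5G51440 fell from 5.98, 6.17 and 6.72 to under 4 on all PEG arrays. The difference was -2.29 with these arrays set to the floor (SE 0.21, limma adjusted p = 0.0034) and -3.16 without the floor. AT2G27140, annotated as a HSP20-like chaperone, fell from 7.31 ± 0.29 to 4.67 ± 0.24 (SD, n = 3 each; log2 fold change -2.64, SE 0.21, limma adjusted p = 0.0024). AT4G21870, another HSP20-like gene, had the largest difference, from 8.57 ± 0.13 to 5.34 ± 0.96 (SD, n = 3 each; log2 fold change -3.23). It missed the limit on p with the floor (limma adjusted p = 0.016) and was called without it (adjusted p = 3.1e-04). All its values exceeded 4, so the floor left them unchanged, but the SE from limma was 0.54 with the floor and 0.40 without.

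A floor of 5 ended the call of AT5G51440 (-1.29, limma adjusted p = 0.0174) and added that of AT4G21870 (-2.99, adjusted p = 0.00628). Leaving out single arrays with the floor of 4 in place and all features fitted ended the calls of AT5G51440 and AT2G27140 but not that of ACD32.1. The adjusted p of AT5G51440 was 0.0101 without untreated replicate 1, 0.0153 without untreated replicate 2, 0.0178 without PEG replicate 1, 0.0203 without PEG replicate 2 and 0.0200 without PEG replicate 3. That of AT2G27140 was 0.0149 without untreated replicate 1, 0.0133 without untreated replicate 3, 0.0129 without PEG replicate 2 and 0.0148 without PEG replicate 3 (limma, Benjamini-Hochberg). Without the floor both kept the call with any single array left out. With the floor, but only features above 4 on at least 3 of the remaining arrays fitted, AT2G27140 kept it with any array left out. AT5G51440 was then tested only with a PEG array left out, and kept it.

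**Figure D3:**
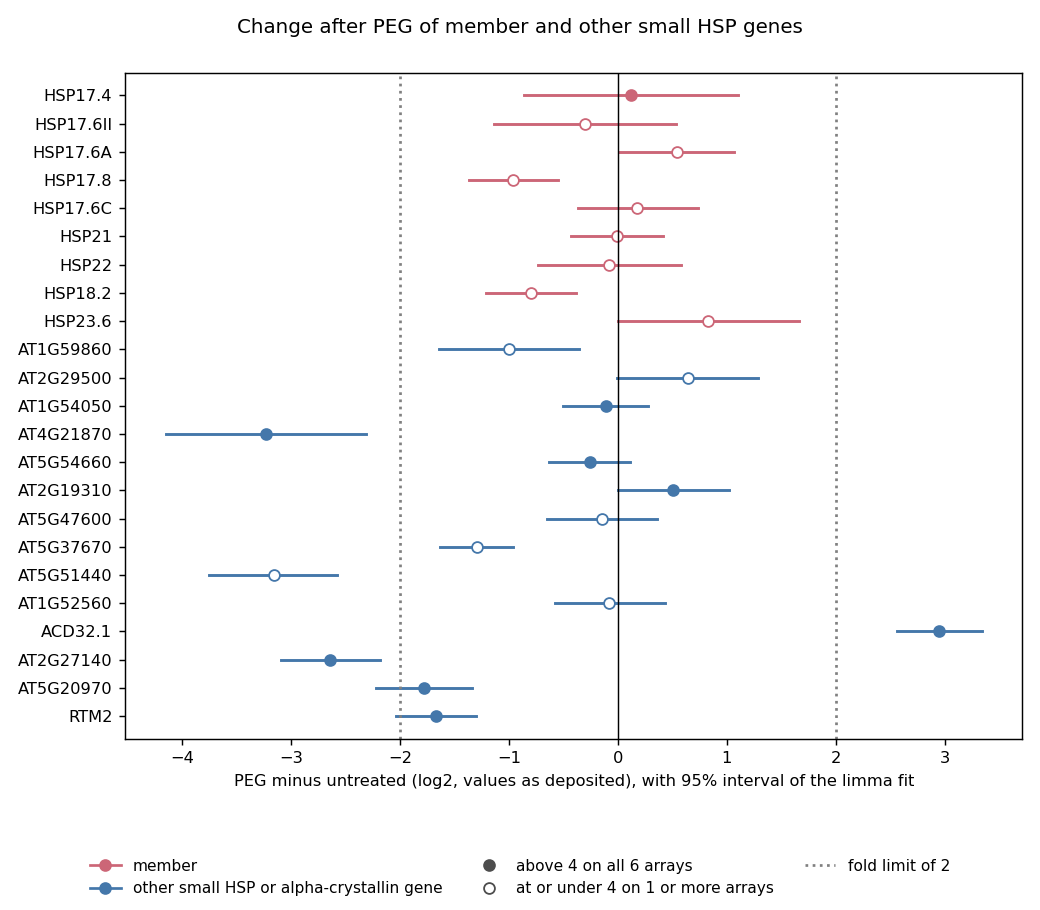
PEG minus untreated on the log2 scale without the floor (x axis), with the 95% interval of the limma fit, for the 9 small HSP members and 14 other small HSP or alpha-crystallin genes (y axis). Dotted lines mark the fold limit of 2, and filled circles mark genes above 4 on all 6 arrays. All member intervals lie inside the dotted lines, whereas ACD32.1 lies to the right and AT4G21870, AT5G51440 and AT2G27140 to the left.

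Among the 20 other HSFs, none was called by limma, while 10 had an unadjusted p under 0.05, 7 of them higher and 3 lower, where 38.2% of all features passed. With the floor HSFB4 had the largest difference, from 5.10 ± 0.40 to 6.42 ± 0.18 (SD, n = 3 each; log2 fold change 1.31, SE 0.24, limma adjusted p = 0.020). With the floor and 1 feature per gene, an adjusted p of 0.01 or less was reached by HSFA8 (1.18), HSFB2A (-1.10) and HSFA3 (-0.74). These are named after their values were seen, where 7.46% of all features passed higher and 8.24% lower. HSFA1B (listed as HSF3) had 2 features. The 1 that stood for the gene had 1.11 (limma adjusted p = 0.014), and the other had 0.99 (adjusted p = 9.1e-04). HSFA3 had values of 4.77, 4.89 and 4.55 in untreated seeds and 2.45, 2.71 and 2.65 after PEG, and without the floor it had the largest difference of these HSFs and was called lower (log2 fold change -2.13, limma adjusted p = 2.2e-05). This call was lost after quantile normalization without the floor, and with untreated replicate 2 and PEG replicate 1 both left out. HSFA2, a heat-induced HSF that sustains small HSP expression, had -0.36 with the floor (limma adjusted p = 0.026). Its values were 4.29, 4.53 and 4.31 in untreated seeds and 3.43, 3.66 and 4.03 after PEG. A further feature of HSFA2 was under 4 on all arrays. Without the floor the differences of these features were -0.67 (adjusted p = 0.021) and -0.63 (adjusted p = 0.011).

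Genes of the general heat response showed no common direction. Of 15 such genes, 6 were higher and 8 lower (11857 and 11871 of the 35986 features), with a median log2 fold change of -0.40. Called higher was 1 (1.15% of all features). At any fold, a limma adjusted p of 0.01 or less was reached by 2 higher and 1 lower (7.46% and 8.24% of all features). Without the floor GolS1 was called higher as well (2.09, limma adjusted p = 1.7e-04), but not with untreated replicate 1 left out. DREB2A, a drought- and heat-induced transcription factor that activates HSFA3, rose from 5.68 ± 0.37 to 8.55 ± 0.15 (SD, n = 3 each; log2 fold change 2.87, SE 0.22, limma adjusted p = 0.0021). Its adjusted p was 0.0121 without untreated replicate 2, 0.0115 without PEG replicate 1, 0.0142 without PEG replicate 2 and 0.0138 without PEG replicate 3, each over the limit with the floor. Without the floor it kept the call with any single array left out, at log2 fold changes of 2.72 to 3.07. It also did so with the floor when only features above 4 on at least 3 of the remaining arrays were fitted. HSP101, the disaggregase that works with small HSPs, had 4.66 ± 0.47 in untreated seeds and 4.94 ± 0.16 after PEG (SD, n = 3 each; log2 fold change 0.29, limma adjusted p = 0.63). It is named, like HSFA2, for its role and outside the rule for named genes.

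**Figure D4:**
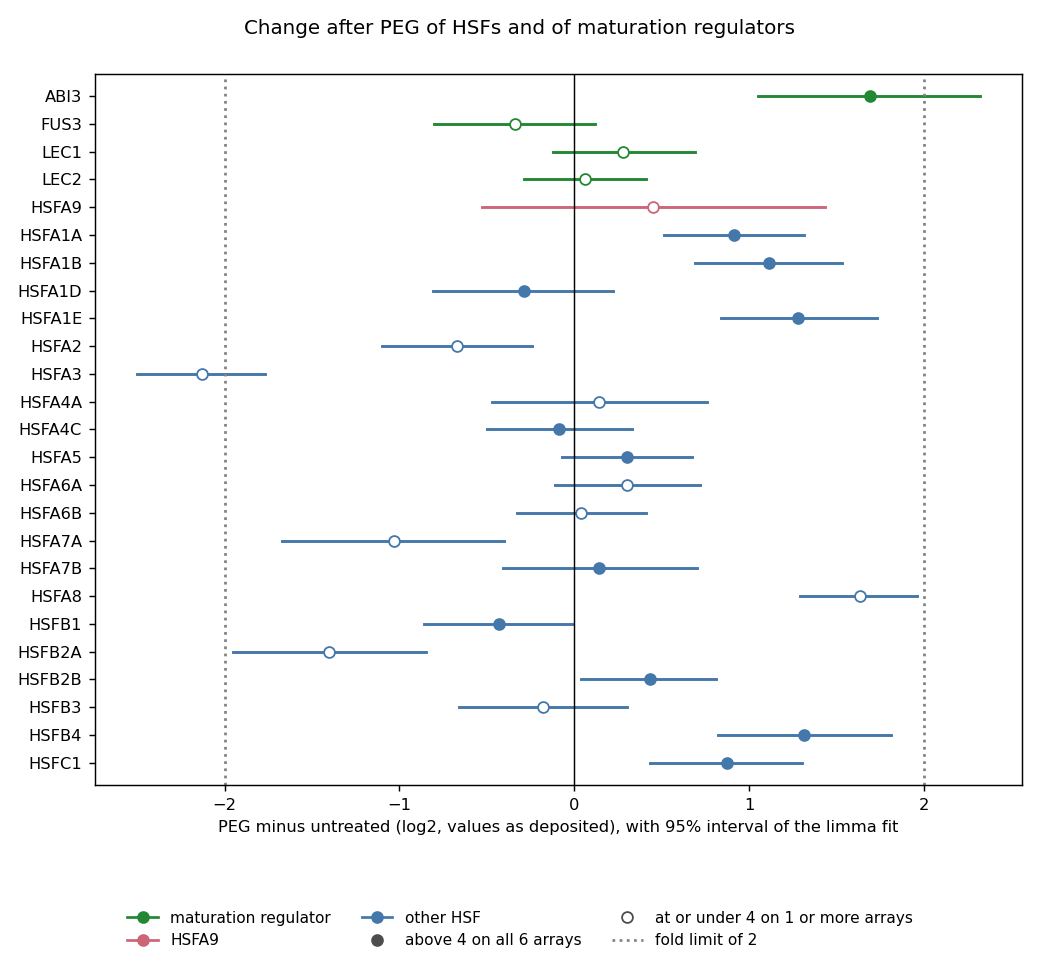
PEG minus untreated on the log2 scale without the floor (x axis), with the 95% interval of the limma fit, for ABI3, FUS3, LEC1 and LEC2, for HSFA9 and for 20 other HSFs (y axis). Dotted lines mark the fold limit of 2, and open circles mark genes at or under 4 on 1 or more arrays. HSFA9 spans zero, from -0.53 to 1.43, and HSFA3 lies beyond the dotted line on the left.

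The arrays as a whole had medians of 4.81 to 4.97, with 38.2% to 41.6% of the features under 4. The glyoxylate cycle and gluconeogenesis genes ICL, MLS and PCK1, markers of oil mobilisation in germinated seeds, lay at 10.57 to 11.91 on all arrays. The seed coat markers BAN and TT10 and the pollen markers VGD1 and DAF1 were under 4 throughout. MUM4, also listed with the seed coat, lay at 5.94 to 6.30 on all arrays and had a log2 fold change of -0.11. Among the endosperm markers MAN7 was called higher with a log2 fold change of 2.88, whereas EXPA2 had 0.47 and EPR1 -0.98, neither of them called. Of the genes annotated as dark inducible, DIN10 was called lower with a log2 fold change of -3.15, DIN1 (listed as SEN1) had -0.61 and was not called, and DIN2 was under 4. DIN6 (listed as ASN1) had values of 2.24, 3.16 and 2.38 in untreated seeds and 6.42, 4.97 and 5.24 after PEG. Its log2 fold change was 1.55 with the floor, not called, and 2.95 without it, called higher (limma adjusted p = 3.8e-04). The part of the endosperm and dark-inducible genes' differences in the members' values was not tested.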

How the data were processed

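The 6 arrays were grouped by the sample titles. The authors deposited log2 expression values, 1 per gene model, which the submitters' processing notes credit to RMA. The paper gives a custom probe definition for its ABA arrays, and the definition for these arrays is not given in the sources used here. All columns belong to the 6 arrays. Of 27981 loci, 27241 matched the TAIR10.1 gene table, used for names and neighbours only.

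After values under 4 had been set to 4, a linear model with the group as its sole term was fitted to the 35986 features (limma 3.58.1, lmFit followed by eBayes, R 4.3.3). Features with a log2 difference of at least 2 in either direction and a p no greater than 0.01 after Benjamini-Hochberg adjustment were called. The eBayes step adjusts the variance of each feature by those of all features, so the floor also changed the SE of features above 4 throughout. On simulated data 155 of 200 changed features (77.5%) were recovered, with 0 false calls among 35986. The shifts simulated exceeded the fold limit, in features expressed well over the floor.

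The feature with the highest mean stood for a gene. Named were all members, the called genes and the largest difference of each list, 4 maturation regulators and the 5 most similar profiles. The members and lists were chosen with earlier results of these data known. No sequences were analysed here.

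The test was repeated with arrays left out in turn, with the replicate number as a block, on 1 feature per gene, with a robust trended prior, on features that exceeded 4 on 3 or more arrays, after median centring or quantile normalization, with limits of 1 on the fold or 0.05 on the adjusted p, and with the floor raised to 5 or removed. Combinations without the floor, except that with a fold limit of 1, were added after the values were seen. Replicates are numbered as biological replicates in the sample titles, which do not state whether same-numbered arrays share a seed harvest. Whether replicates came from separate growth batches is not given in the sources used here.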

Additional observations from a re-analysis of the deposited data

How the results depend on the processing

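No member was called higher or lower under any of the 24 planned or 10 added alternatives (0 throughout). Their median log2 fold change was -0.30 to 0.56 when single arrays were left out. The extremes came with the filter on low values, which then keeps only 2 to 3 members (0.56 without untreated replicate 2, 0.47 without PEG replicate 2). HSP17.4 ranged from -0.30 to 0.52 in these settings, and its sign turned without PEG replicate 1 (-0.30), untreated replicate 1 (-0.07) or untreated replicate 3 (-0.10), each with the floor, without it or with the filter. Among other small HSPs, 3 were called, 6 at a fold limit of 1, 7 with that limit and no floor, 0 with the replicate block and 1 to 4 with single arrays left out. Without untreated replicate 1, PEG replicate 2 or PEG replicate 3, and with the floor, 1 was called (ACD32.1). With the filter on low values as well, 3 to 4 were called with single arrays left out. Other HSFs gave 0 calls, 1 without the floor (also after centring or with the block, but 0 after quantile normalization or without untreated replicate 2 and PEG replicate 1), 2 at a fold limit of 1, 6 with both changes, and 0 to 1 with single arrays left out. Heat-response genes gave 1, 2 without the floor (also after quantile normalization, centring or the block), 3 at a fold limit of 1, 5 with both, 0 with the replicate block and 0 to 2 with single arrays left out. They gave 0 with the floor without untreated replicate 2 or any 1 of the PEG arrays, but 1 in each case with the filter on low values as well.

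The replicate numbers gave no sign of pairing: deviations of same-numbered arrays correlated at -0.0926, -0.0156 and 0.0425 over 22468 features. Those of differently numbered arrays correlated at -0.117 to 0.107. With 3 arrays per group, whether a harvest was shared cannot be told from these values. The replicate block ended the calls of ACD32.1 (adjusted p = 0.0195), AT5G51440 (0.0397), AT2G27140 (0.0433) and DREB2A (0.0235), but not with the filter on low values (limma, Benjamini-Hochberg). The floor and the 3 arrays per group limit what can be measured, and for the 5 members under 4 throughout no change can be read.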
